A study of Mus musculus with 44 samples.

Results

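The matrix metalloproteases, the ADAMTS proteases with their ADAMTS-like relatives, and the TIMPs that inhibit them were followed as 1 gene set. Members were taken by symbol (Mmp, Adamts or Adamtsl with a number, and Timp1 to Timp4), which gave 51 of the 46831 genes in the table: 23 Mmp, 19 Adamts, 5 Adamtsl and 4 Timp genes. The rule used names only and no measured value.

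The libraries came from long bone of mice on a C57BL/6J background (C57Bl6 in the labels) at postnatal day 3, sorted by flow cytometry into skeletal stem cells (SSC), pre-BCSP (pBCSP), bone, cartilage and stromal progenitors (BCSP), and the downstream populations HEC (hepatic leukemia factor expressing cells), 6C3, BLSP (B-cell lymphocyte stromal progenitors), THY and PCP (pro-chondrogenic progenitors). Sorted cells were negative for the blood markers CD45 and Ter119 and the endothelial marker Tie2, and were split by CD51, Thy, 6C3, CD105 and CD200. In each population m6A-modified RNA was pulled down with an antibody (IP) and sequenced beside the RNA before pull-down (input). There were 44 libraries in 22 conditions with 2 replicates each: 32 WT libraries over 8 populations, and 12 labelled Mettl3cko in SSC, pBCSP and BCSP.

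WT mice carried the loxP-flanked alleles without Cre (Mettl3 fl/fl), and Mettl3cko mice carried Mettl3 fl/fl with Cre driven by the Col2a1 promoter, so both genotypes held the floxed alleles and only cells that had used that promoter were exposed to Cre. The genotype was read from the sample titles, since the genotype field reads wild type for every library. Sorted cells of pups from several litters were used regardless of sex, and cells of the same sort were divided between IP and input. The 2 replicates of a condition are described as biologically independent experiments, and the animals behind each are not named. Input libraries held 19795666 to 44046651 counts and IP libraries 16480027 to 35856651 counts.

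Matrix metalloproteases are zinc-dependent enzymes that cut collagens and other matrix proteins, mostly outside the cell, and are made as inactive precursors. ADAMTS proteases include the enzymes that cut aggrecan and versican and those that trim procollagens, while ADAMTS-like proteins lack the protease domain. TIMPs bind the active enzymes and block them. In growing bone the collagenase Mmp13 and the gelatinase Mmp9 are known for the removal of calcified cartilage at the growth plate.

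A run of 10 Mmp genes lies side by side on chromosome 9, among them Mmp13, Mmp3 and Mmp10, and their promoters are shown because these 3 are among the members with the largest differences between populations described below. The cluster spans chr9:7272514-7699585 on GRCm38. Promoters of RefSeq on the same build were searched from 250 bases before to 50 bases after the start site for the AP-1 motif TGANTCA, on both strands (the motif reads the same on either strand). AP-1 is a dimer of Fos and Jun proteins that binds this motif. Of the 51 members 36 had a promoter in the table (39 promoters), and all 10 genes of the cluster did. Members without one, Mmp9, Mmp2, Adamts4 and Adamts5 among them, were not searched. The cluster has 12 promoters in the table, since Mmp12 and Mmp7 have a pair each. The motif was present in 8 of these 12, each in a different gene, and in 7.81% of all 32851 promoters. It was in none of the promoters of the 26 members outside the cluster that had one in the table. Mmp8 and Mmp27 were the cluster genes without these letters. The 8 matches are given with 10 bases on either side and the motif in capitals, read along the gene:
Mmp13: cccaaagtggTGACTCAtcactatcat
Mmp12: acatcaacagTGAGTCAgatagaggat
Mmp1b: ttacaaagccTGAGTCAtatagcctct
Mmp3: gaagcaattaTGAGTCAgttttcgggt
Mmp1a: ttgtcaaccaTGAGTCAcatagcctct
Mmp10: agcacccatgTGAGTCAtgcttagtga
Mmp20: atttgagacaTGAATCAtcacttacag
Mmp7: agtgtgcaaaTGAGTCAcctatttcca

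The first base of the motif lay 35 bases before the start of Mmp13, 44 before that of Mmp12, 46 before that of Mmp3, 63 before those of Mmp10 and Mmp7, 73 before that of Mmp1a, 93 before that of Mmp1b and 95 before that of Mmp20. The Mmp12 match lies before an alternative start 2977 bases downstream of the other, whose promoter does not hold these letters. The Mmp1b window lies on the minus strand and the other 7 on the plus strand. The full 250 bases before the start of Mmp13 (chr9:7272264-7272513, plus strand) also hold the Runx core TGTGGT on the other strand, shown as ACCACA in capitals beside the AP-1 motif:
Mmp13: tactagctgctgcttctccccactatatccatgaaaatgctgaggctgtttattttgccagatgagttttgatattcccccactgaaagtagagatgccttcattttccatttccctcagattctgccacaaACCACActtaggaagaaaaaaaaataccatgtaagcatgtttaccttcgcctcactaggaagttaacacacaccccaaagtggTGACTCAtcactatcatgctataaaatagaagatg

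Across all promoters the Runx core, searched on both strands, was present in 16.8%, and 6 of the 39 member promoters held it. The same stretch before Mmp3 (chr9:7445572-7445821, plus strand) held the AP-1 motif and no Runx core:
Mmp3: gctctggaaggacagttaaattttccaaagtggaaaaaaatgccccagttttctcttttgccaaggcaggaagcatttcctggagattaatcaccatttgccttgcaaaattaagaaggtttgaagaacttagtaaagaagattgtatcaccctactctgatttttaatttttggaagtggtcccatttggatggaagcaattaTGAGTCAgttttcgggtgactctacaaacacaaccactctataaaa
A match describes the letters in these windows. No binding was measured.

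Length-scaled, Mmp2 was the most abundant member in the WT input libraries, with a mean of 493 CPM (counts per 1e6 counts) per kilobase (CPM per kb). The length is that of all annotated exons of a gene merged, which can exceed that of a single transcript, and the order of members depends on it. Mmp13 followed with 183 CPM per kb, Timp1 with 164, Mmp14 with 120, Mmp3 with 84.8, Timp3 with 77.6, Timp2 with 61.3, Adamts1 with 53.5, Adamtsl4 with 24.9 and Adamts4 with 21.7 CPM per kb. The means of Mmp13 and Mmp3 rest on few libraries, as their values below show. Values from here on are input CPM of a gene, scaled by TMM over the 22 input libraries and not by length.

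Of the 51 members 46 had enough counts to be tested across the 16 WT input libraries. Mmp1a, Mmp1b, Mmp7, Mmp20 and Mmp27 did not. Across the 8 WT populations 34 of the 46 differed at an adjusted p under 0.05, beside 40.1% of all genes (edgeR quasi-likelihood test, Benjamini-Hochberg over all genes tested). SSC, pBCSP and BCSP (6 libraries, the stem and progenitor populations) were then set against the 5 downstream populations (10 libraries). Lower in the stem and progenitor populations were 28 members, beside 28.3% of all genes, and higher were 6, beside 23.1%. The median log2 difference of the members was -1.32 and that of all genes was -0.114. By family the median log2 difference was -1.43 for Mmp, -1.54 for Adamts, -0.31 for Adamtsl and 0.174 for Timp genes. In 8 members every stem and progenitor library lay below every downstream library (8.62% of all genes did), namely Mmp14, Mmp23, Mmp28, Adamts2, Adamts4, Adamts8, Adamts19 and Adamtsl1. Timp4 was the single member with the opposite order, beside 7.89% of all genes.

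**Figure D1:**
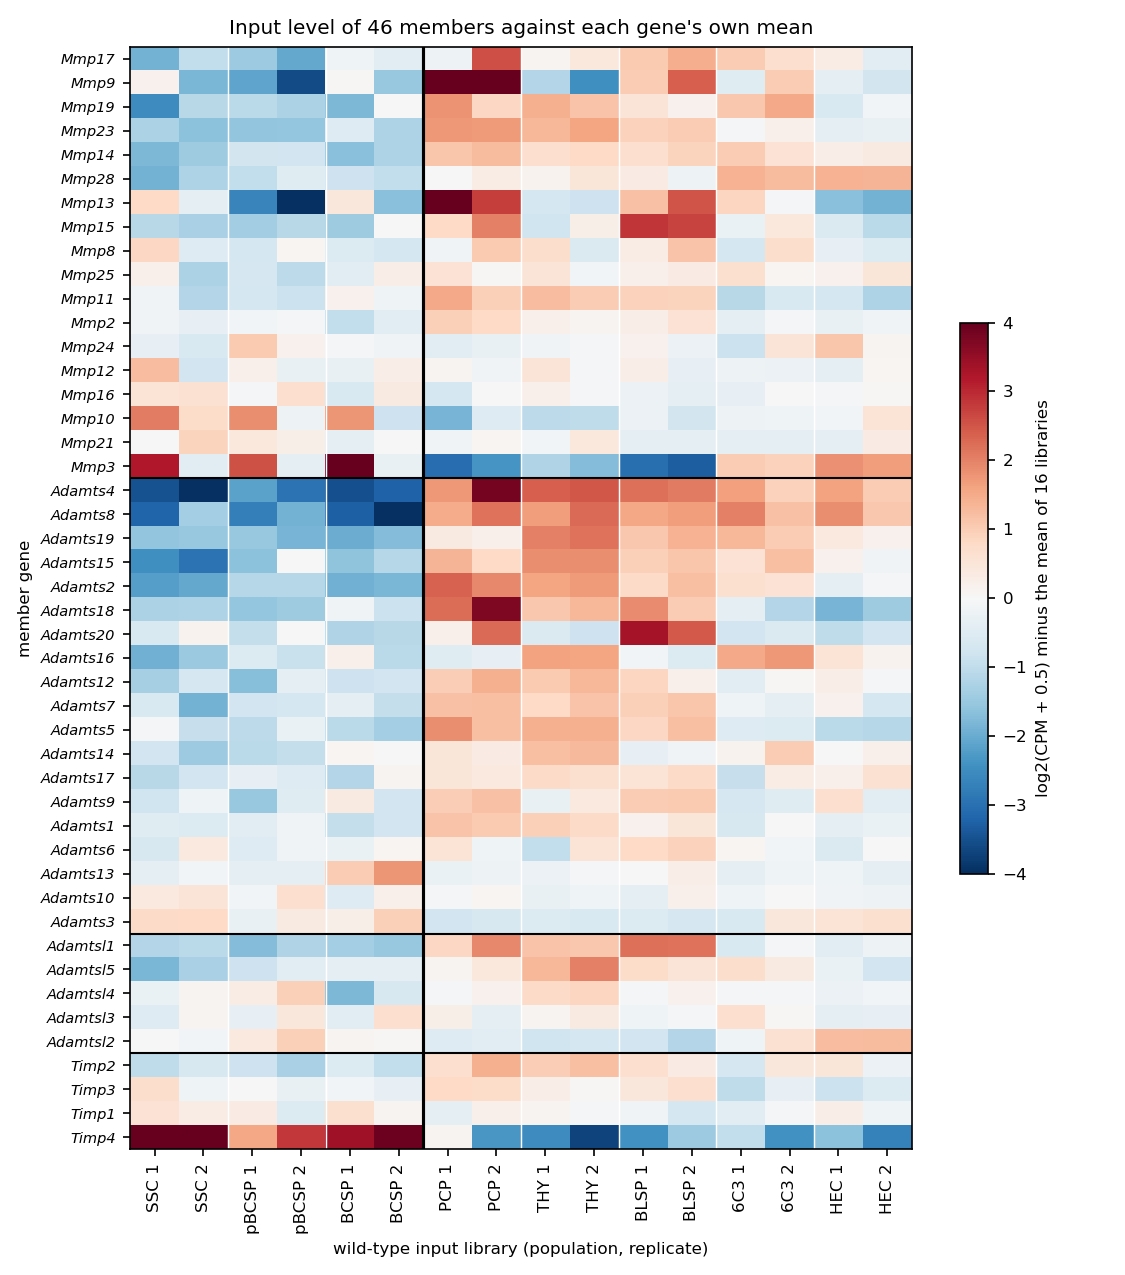
Level of every tested member in the 16 WT input libraries, as log2(CPM + 0.5) minus the gene's mean over the libraries, with colours saturating at 4 on either side. Columns are libraries in population order and rows are members; most rows are low in the SSC, pBCSP and BCSP columns, and Timp4, Mmp3 and Mmp10 are high there.

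In bulk samples fewer cells of a type and less RNA per cell cannot be told apart, and marker sums are therefore given beside the families. The summed level of 6 osteoclast markers was 5.11 to 9.81 CPM in the stem and progenitor libraries, 15.1 to 15.8 in PCP and 10.9 to 22.6 in the other downstream libraries. The 5 red cell markers summed to 0.704 to 5.54, 78.4 to 118 and 16.7 to 144 CPM in the same 3 sets, and the 7 neutrophil markers to 0.547 to 11.8, 11.9 to 26.5 and 1.3 to 24.7 CPM. Ptprc, which encodes the leukocyte marker CD45, was at 0 in all 6 stem and progenitor libraries and at 0.0619 to 0.828 CPM in the downstream ones. The 5 chondrocyte markers summed to 85500 to 101000 CPM in the stem and progenitor libraries to 16200 to 20100 in PCP, which the labels describe as pro-chondrogenic, and to 7200 to 96300 in the other downstream libraries. The 5 osteoblast markers summed to 5380 to 11100, 90100 to 99200 and 66600 to 142000 CPM in the same 3 sets. Most of this sum is Col1a1, which was lower in the stem and progenitor populations (log2 difference -3.66). Bglap, Ibsp, Sp7 and Alpl were higher there (2.32, 1.78, 0.78 and 0.51), each at an adjusted p under 0.05. PCP stood apart by its 5 endothelial markers, at 85.4 to 86.2 CPM against 1.08 to 20.7 in the stem and progenitor and 1.12 to 9.88 in the other downstream libraries, and by its 3 marrow stroma markers, at 1190 to 2370 CPM against 23.2 to 117 and 126 to 492. Higher in the stem and progenitor libraries were 2 hypertrophic chondrocyte markers, which summed to 35 to 1170 CPM. PCP held 11.9 to 14.8 and the other downstream libraries 0.476 to 3.34. In the same order of sets 4 skeletal muscle markers summed to 20.9 to 53, 10.2 to 12.8 and 5.35 to 12.1 CPM. Most of this sum in the stem and progenitor libraries was Tnnt3 (log2 difference 2.72). Acta1, Ckm and Myh3 went the other way (-0.78, -0.24 and -4.06), with Myh3 alone of them at an adjusted p under 0.05. The 5 macrophage markers summed to 34.3 to 66.1, 17.5 to 22 and 14.3 to 72.7 CPM in the same order of sets. Most of this sum was Cd14 and Cd68, which were higher in the stem and progenitor populations (log2 difference 0.87 and 0.75). Mrc1 was lower there (-3.88, adjusted p 0.00572) and Csf1r did not pass the test (-0.78). Adgre1 was at 0 in all stem and progenitor libraries. The part of these cells in the differences was not tested.

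Among the collagenases, Mmp13, which cuts fibrillar collagen, had its top levels in PCP, at 5057 and 788 CPM. BLSP followed at 265 and 663, 6C3 at 213 and 112, SSC at 202 and 90.5, BCSP at 160 and 36.1, THY at 71.1 and 65.7, HEC at 36.6 and 31.2, and pBCSP at 18.4 and 5.94 CPM. PCP replicate 1 was far above replicate 2, and both lay above every other library. Mmp13 was lower by 1.97 on the log2 scale (SE 0.42, adjusted p 0.00105) in the stem and progenitor populations, although SSC and 6C3 overlapped and HEC and THY lay within the stem range. Mmp8, the neutrophil collagenase, was at or under 1.31 CPM in every WT library and did not pass the test.

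Both gelatinases were lower in the stem and progenitor populations. Mmp9, a product of osteoclasts and neutrophils among other cells, was at 242 and 109 CPM in PCP and at 11.3 and 30.4 in BLSP. It was lower in 6C3 (3.77 and 11.4), SSC (6.18 and 1.18), BCSP (5.63 and 1.58), HEC (4.14 and 3.03), THY (2.11 and 0.589) and pBCSP (0.87 and 0 CPM). Its log2 difference was -2.54 (SE 0.53, adjusted p 7.64e-04), and the groups overlapped. Mmp2, which cuts denatured collagen, differed less and in the same direction, by -0.55 (SE 0.11, adjusted p 5.23e-04). Its libraries ran from 800 to 1474 CPM in the stem and progenitor populations and from 1228 to 3070 downstream, with both PCP libraries (3070 and 2704) on top.

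The stromelysins Mmp3 and Mmp10, which cut proteoglycans and activate other metalloprotease precursors, went the other way. BCSP held 1091 and 37.1 CPM of Mmp3, SSC 430 and 34.4, and pBCSP 269 and 34.6. Downstream HEC held 163 and 149, 6C3 92.5 and 88.1, THY 19.8 and 13.5, PCP 5.05 and 8.51, and BLSP 5.2 and 4.2 CPM. Replicate 1 of each stem and progenitor population was above every downstream library, and replicate 2 of each lay below those of 6C3 and HEC. The log2 difference was 3.52 (SE 0.57, adjusted p 9.19e-05). Without replicate 1 of the 3 stem and progenitor populations, an alternative chosen after seeing the data, it was 0.58 (adjusted p 0.00996). SSC held 8.6 and 3.2 CPM of Mmp10, BCSP 7.09 and 0.74, pBCSP 7.47 and 1.41, and the downstream libraries 0.105 to 2.72, a log2 difference of 2.19 (SE 0.50, adjusted p 0.00174). With the same libraries left out the difference of Mmp10 was 0.54 (adjusted p 0.417). Mmp11 (stromelysin 3) was lower by 0.79 on the log2 scale (adjusted p 0.00794), and its adjusted p was 0.0797 with PCP left out.

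Replicate 1 exceeded replicate 2 by over 2-fold in SSC, pBCSP and BCSP alike in 4 members, Mmp3, Mmp9, Mmp10 and Mmp13. Among all genes 65 of 20060 (0.324%) did so. The opposite order in all 3 populations was found in no member and in 0.16% of all genes. The summed neutrophil markers were at 11.8, 3.22 and 11.2 CPM in replicate 1 of SSC, pBCSP and BCSP and at 1.6, 2.66 and 0.547 CPM in replicate 2, and their part in this split was not tested. 

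**Figure D2:**
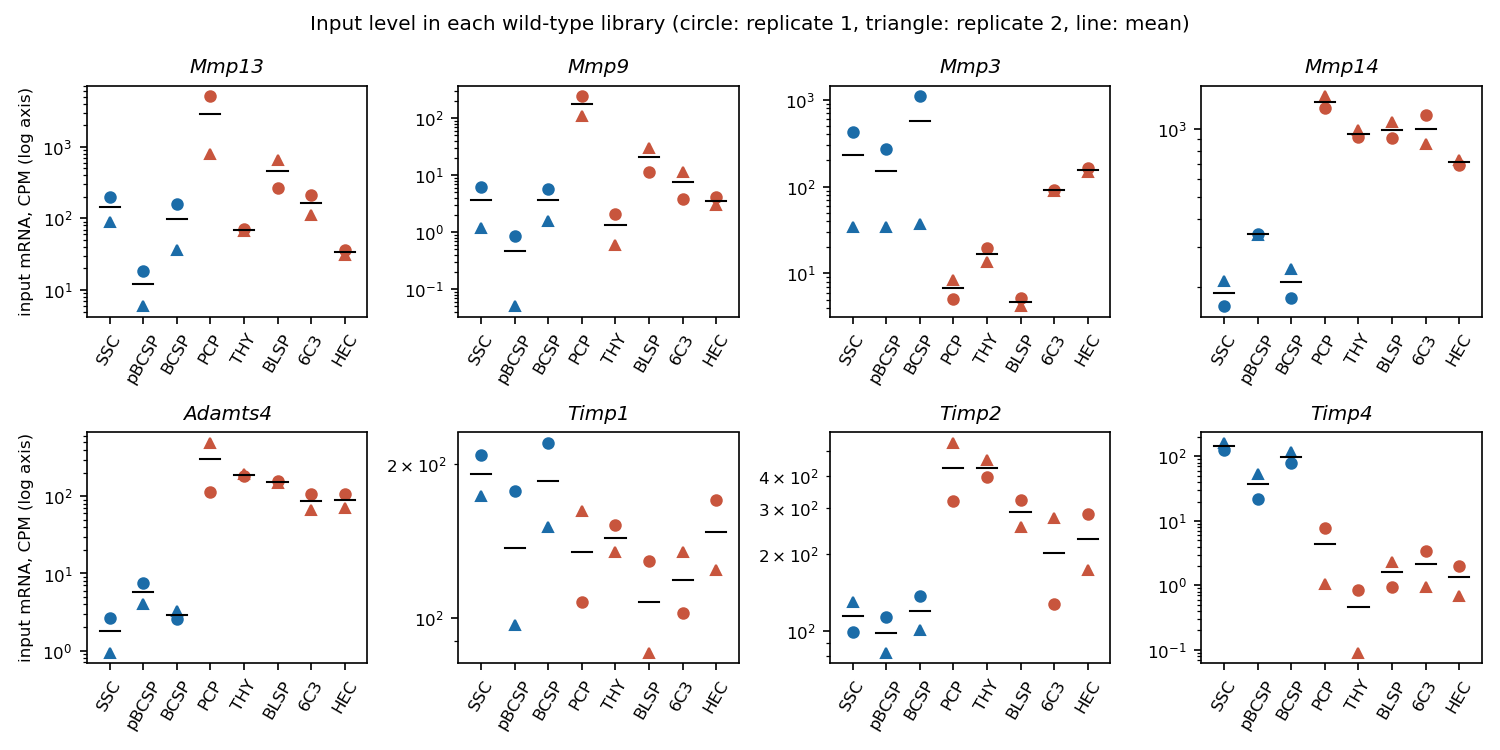
Input CPM on a log axis of Mmp13, Mmp9, Mmp3, Mmp14, Adamts4, Timp1, Timp2 and Timp4 in each of the 16 WT libraries by population (circles replicate 1, triangles replicate 2, lines the mean), with blue points for SSC, pBCSP and BCSP, red points for the downstream populations, and a listed 0 drawn at 0.05 CPM. Adamts4, Mmp14 and Timp4 separate the blue from the red points without overlap, whereas Mmp13, Mmp9 and Mmp3 span wide ranges within the blue points.

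Of the 6 membrane-type metalloproteases, which act at the cell surface, 3 were lower, 1 was higher and 2 did not pass the test. Mmp14, which activates the precursor of Mmp2 and cuts collagen around cells, was at 344 and 340 CPM in pBCSP, at 178 and 241 in BCSP and at 164 and 212 in SSC. The 10 downstream libraries ran from 695 CPM in HEC replicate 1 to 1393 in PCP replicate 2, so that no library overlapped. Its log2 difference was -2.04 (SE 0.12, adjusted p 1.57e-09). Mmp17 (0 to 1.36 against 1.05 to 12 CPM, log2 difference -3.10) and Mmp15 (2.72 to 7.91 against 3.53 to 62.1 CPM, -1.80) were lower too. Mmp16, at 58.4 to 142 CPM against 54.5 to 101, was higher by 0.45 (SE 0.16, adjusted p 0.026). That call was lost without SSC replicate 2, pBCSP replicate 2, BCSP replicate 2 or THY replicate 2 (log2 difference 0.26 to 0.43). Among the other Mmp genes, Mmp19, Mmp23 and Mmp28 were lower, by log2 differences of -2.22, -2.09 and -2.02, and Mmp21, listed at or under 0.695 CPM, did not pass the test. Macrophage elastase (Mmp12) was at 0 to 1.49 CPM and did not pass either.

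All 7 proteoglycan-cutting ADAMTS genes were lower in the stem and progenitor populations. Adamts4, an aggrecanase, was at 7.44 and 3.98 CPM in pBCSP, at 2.53 and 3.25 in BCSP and at 2.62 and 0.939 in SSC. Downstream HEC held 107 and 70.9, 6C3 109 and 66.1, BLSP 160 and 148, THY 182 and 196, and PCP 116 and 493 CPM. Every downstream library was above every stem and progenitor library, and the log2 difference was -5.57 (SE 0.35, adjusted p 4.2e-09). Adamts8 ran from 0 to 3.65 CPM against 22.3 to 51.2 CPM downstream, a log2 difference of -5.06 (SE 0.44, adjusted p 1.3e-07), and Adamts15 from 0.0695 to 3.98 against 3.53 to 15.5 CPM (-3.30, adjusted p 9.76e-07). Adamts5, the other main aggrecanase, differed less (log2 difference -1.24, adjusted p 1.18e-05). It was at 12.8 to 32.6 CPM in the stem and progenitor libraries, near 6C3 (23.4 and 22.9) and HEC (15.7 and 15.1), and at 60.1 to 123 in PCP, THY and BLSP. Adamts1 had a log2 difference of -0.89, Adamts9 of -0.96 and Adamts20 of -2.17. The call of Adamts9 was lost with PCP left out (adjusted p 0.0547) and that of Adamts20 without replicate 1 of the 3 stem and progenitor populations (adjusted p 0.0929), both chosen after seeing the data.

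The procollagen N-proteinases remove the amino-terminal propeptide from fibrillar procollagens, and they split. Adamts2, which acts on type I procollagen in bone and skin, was at 37.4 and 37.4 CPM in pBCSP, at 21.5 and 22.7 in BCSP and at 17.5 and 19.4 in SSC, against 64.0 to 425 CPM downstream without overlap. Its log2 difference was -2.78 (SE 0.12, adjusted p 7.45e-11). Adamts14 was lower as well (log2 difference -1.18), while Adamts3, which acts on type II procollagen among others, was higher by 0.78 (SE 0.17, adjusted p 0.0013). Adamts3 was at 16.2 and 26.8 CPM in BCSP, at 23.2 and 23.7 in SSC, at 11.0 and 17.4 in pBCSP and at 7.83 to 21.6 downstream, where HEC (19.9 and 21.6) was highest. Of the 9 other ADAMTS genes 6 were lower, led by Adamts19 (0.19 to 0.452 against 2.54 to 11.8 CPM, log2 difference -3.86, adjusted p 1.18e-08), and none was higher. Adamts18 was lower by 2.41 on the log2 scale, and without HEC replicate 2 by 1.44 with an adjusted p of 1. Of the 5 ADAMTS-like genes, Adamtsl1 (log2 difference -2.51) and Adamtsl5 (-1.48) were lower and 3 did not pass the test.

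The 4 inhibitors had 4 patterns. Timp4 was highest in SSC (125 and 162 CPM), then BCSP (80.1 and 116) and pBCSP (22.2 and 53.8). Downstream it was at 7.75 and 1.04 in PCP and at 0.0906 to 3.41 in the other 8 libraries, a log2 difference of 5.75 (SE 0.43, adjusted p 2.92e-08). Timp2 was lower in the stem and progenitor populations by 1.45 (SE 0.19, adjusted p 1.04e-05), at 82.4 to 137 CPM against 127 to 539, with the lowest downstream value in 6C3 replicate 1. Timp1 was at 96.9 to 219 CPM against 85.4 to 170 and was higher by 0.39 (SE 0.16, adjusted p 0.0488). That call was lost without any 1 of 10 libraries (log2 difference 0.22 to 0.43). Timp3 was at 466 to 965 CPM against 292 to 1021, and its log2 difference was -0.04 (SE 0.14, adjusted p 0.848). Of the exon bases of Timp3 21.3% are shared with Syn3 on the opposite strand, and of those of Timp4 1.53% with Syn2. Other members that share exon bases with a gene on the opposite strand are Mmp19 (22.3% with Tmem198b), Mmp24 (13.6%), Mmp28 (12%), Adamts8 (10.6%), Adamts9 (9.18%), Mmp11 (5.58%) and Adamts4 (3.56%). Adamts7 (1.94%) and Mmp7 (11.5%) do so too, and Mmp1b (10.8%) and Mmp12 (2.17%) share theirs with each other. The counting is not stated to use strand, so reads of such pairs cannot be told apart.

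**Figure D3:**
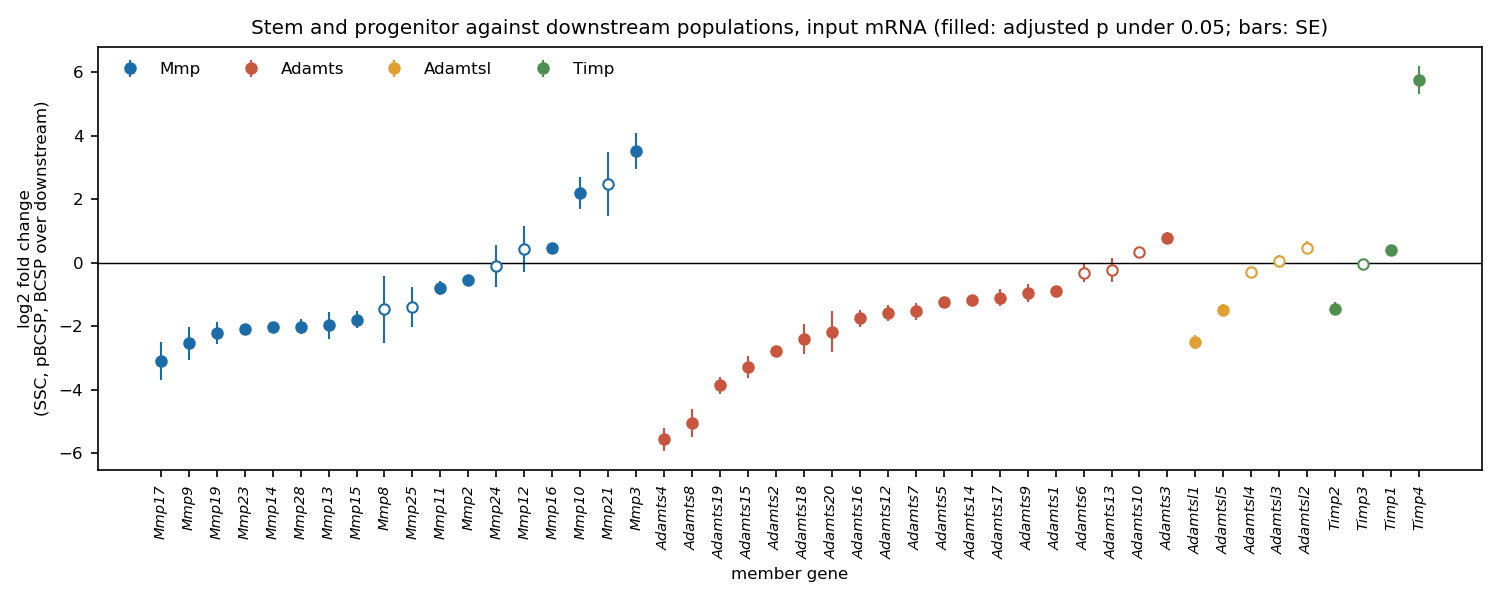
Log2 difference of each tested member between the stem and progenitor populations (SSC, pBCSP, BCSP) and the downstream populations, as points with bars of 1 SE, with members along the horizontal axis coloured by family and filled points for an adjusted p under 0.05. The Adamts points lie mostly below 0, down to Adamts4 at -5.57, and Timp4 at 5.75 and Mmp3 at 3.52 lie highest.

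Of the 34 calls, 31 were kept with each WT input library left out in turn, and those of Mmp16, Timp1 and Adamts18 were not. Partners of matrix proteolysis were read from a list of 29 genes that holds convertases, plasminogen activators, ADAM proteases, cathepsins and cell-surface regulators. Of the 29, 19 were lower and 5 higher in the stem and progenitor populations, beside 28.3% and 23.1% of all genes, with a median log2 difference of -1.08 beside -0.114 over all genes. Plau (urokinase, -2.62), Adam12 (-2.21) and Bmp1 (the procollagen C-proteinase, -1.88) were among the lower ones. Furin (0.79) and Pcsk6 (1.28), convertases that activate membrane-type metalloproteases and ADAMTS precursors, were among the higher ones together with Ctsl, Ctss and Sdc4. Reck, a membrane-anchored inhibitor of metalloproteases, had a log2 difference of 0.21 (adjusted p 0.131).

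Each population was also set against the other 7, which share their libraries between the contrasts. Members were higher in PCP (23, beside 12.9% of all genes), THY (20, beside 10.8%), BLSP (21, beside 9.39%), 6C3 (10, beside 8.31%), HEC (4, beside 6.37%), SSC (5, beside 11.9%), pBCSP (3, beside 9.59%) and BCSP (4, beside 12.7%). They were lower in PCP (2, beside 5.07%), THY (1, beside 5.76%), BLSP (3, beside 4.57%), 6C3 (1, beside 3.85%), HEC (5, beside 2.88%), SSC (20, beside 11.8%), pBCSP (15, beside 8.38%) and BCSP (15, beside 12.8%).

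The largest positive difference over these contrasts was that of Mmp9 in PCP, which was higher there by 5.74 on the log2 scale (SE 0.48, adjusted p 8.35e-07). Mmp13 was higher in PCP by 5.11 (SE 0.43, adjusted p 8.86e-07) and Adamts18 by 4.65 (SE 0.41, adjusted p 1.43e-06), which was at 8.06 and 23.8 CPM in PCP and at or under 6.30 elsewhere. The endothelial and marrow stroma markers that moved with PCP are given above, and their part in these differences was not tested. In BLSP the top member was Adamts20, a versican-cutting protease known for its part in pigment cell development, at 11.0 and 5.90 CPM (log2 difference 5.03, adjusted p 1.16e-05), with PCP replicate 2 at 5.08 and all other libraries under 1. The membrane-type Mmp15 was at 62.1 and 55.6 CPM in BLSP and at or under 34.1 elsewhere (3.25, adjusted p 1.67e-06), and Adamtsl1 was at 21.2 and 20.6 (2.72, adjusted p 1.71e-06). Mmp13 and Mmp9 were also higher in BLSP, by 2.08 and 2.23, and without BLSP replicate 2 by 1.27 (adjusted p 0.322) and 1.35 (adjusted p 0.373).

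In THY the leading members were Adamts19 at 10.5 and 11.8 CPM (log2 difference 3.00, adjusted p 6.39e-07), Adamts4 (2.80, adjusted p 1.14e-05) and Adamts8 (2.48, adjusted p 4.54e-04). Those of 6C3 were Adamts8 (2.08, adjusted p 0.00459), Adamts16 at 10.7 and 12.6 CPM (2.08, adjusted p 4.02e-04) and Adamts19 (1.89, adjusted p 4.27e-04). Adamts16 was at 11.3 and 11.2 CPM in THY, so that 6C3 and THY did not differ beyond their spread, and at or under 5.23 in all other libraries. HEC was led by Adamts8 (1.93, adjusted p 0.00774), Mmp28, or epilysin, at 9.84 and 9.54 CPM beside 9.77 and 9.0 in 6C3 (1.75, adjusted p 6e-04), and Adamtsl2 at 8.75 and 8.82 CPM (1.57, adjusted p 0.0014). Adamts8 was at 38.3 and 22.3 CPM in HEC and at 42.7 and 23.5 in 6C3. BLSP held 30.6 and 33.6, THY 33.4 and 51.2, and PCP 29.2 and 47.8 CPM, so the downstream populations overlapped. The populations each was set against include SSC, pBCSP and BCSP, at 0 to 3.65 CPM of Adamts8.

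The stem and progenitor populations shared Timp4 among their leading members. It was higher by 5.04 in SSC (SE 0.44, adjusted p 8.38e-07), by 2.85 in pBCSP (SE 0.47, adjusted p 6.95e-04) and by 4.42 in BCSP (SE 0.44, adjusted p 4.19e-06). SSC further had Mmp3 (2.26, adjusted p 0.026) and Mmp10 (1.94, adjusted p 0.0357), and pBCSP had Adamtsl2 (0.92, adjusted p 0.0364) and Adamtsl4 (0.73, adjusted p 0.0259). Mmp13 and Mmp9 were lower in pBCSP than in the other 7, by log2 differences of -3.93 (adjusted p 0.00257) and -4.17 (adjusted p 0.00776). BCSP was led by Adamts13, the protease that trims von Willebrand factor, at 0.823 and 1.70 CPM beside at most 0.284 elsewhere (4.77, adjusted p 0.00179), and by Mmp3 (3.73, adjusted p 5.73e-04). Without SSC replicate 1 the difference of Mmp3 in SSC was -0.50, and without BCSP replicate 1 that in BCSP was -0.21, so both directions rest on 1 library. Of the 152 calls of members over the 8 contrasts, 67 were kept with each WT input library left out in turn.

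The m6A signal of a member was read as the log2 ratio of IP to input within a population, and a member was called tagged by the study's thresholds, a log2 ratio over 1 with an unadjusted p under 0.05. A ratio under 0 says that a transcript took a smaller share of the IP than of the input library. Tagged members numbered 5 of 41 tested in HEC (13.5% of all genes), 4 of 42 for 6C3 (14.5%), 4 of 43 for BLSP (12.4%), 3 of 40 for THY (12.4%) and 3 of 43 for PCP (10.6%). They numbered 2 of 38 for SSC (10.4%), 3 of 41 for pBCSP (12%) and 2 of 40 for BCSP (6.67%). These 26 calls fell on 6 members, and 17 of the calls were kept with each library left out in turn. Adamts16 in pBCSP and Mmp8 in HEC were tagged in 1 population each, and with the replicate number as a block Mmp8 was not (log2 ratio 3.27, p 0.0822). Log2 ratios under -1 with an unadjusted p under 0.05 were found for 12 members in HEC (14.2% of all genes), 14 in 6C3 (17.0%), 11 in BLSP (14.8%), 13 in THY (15.0%), 12 in PCP (14.5%), 7 in BCSP (11.7%), 10 in pBCSP (14.8%) and 10 in SSC (13.9%). They fell on 22 members. The median log2 ratio of the members ran from -0.896 in BCSP to -0.214 in 6C3, and that of all genes from -0.0484 to 0.0272.

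The 4 members tagged in at least 4 populations were Timp1, Timp2, Adamts9 and Adamts12. Timp1 was tagged in all 8, with log2 ratios from 1.11 in BCSP to 1.73 in 6C3 (SE 0.16 to 0.34). Its 16 replicate ratios ran from 1.07 in BCSP replicate 1 to 1.85 in 6C3 replicate 1. Timp2 was tagged in 6 populations and had log2 ratios of 1.53 in SSC, 1.62 in pBCSP, 1.25 in BCSP, 1.08 in BLSP, 1.42 in 6C3 and 1.10 in HEC. In PCP and THY its log2 ratio was 0.73 and 0.68, under the threshold.

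Adamts9 and Adamts12 were tagged in the 5 downstream populations. The log2 ratio of Adamts9 ran from 1.24 in BLSP to 2.95 in 6C3 there, while BCSP stood at -0.39, SSC at 1.07 and pBCSP at 1.43 with SEs of 0.84 to 0.96. That of Adamts12 ran from 1.16 in BLSP to 1.68 in 6C3, and was 0.36, 0.91 and 0.62 in SSC, pBCSP and BCSP with SEs of 0.73 to 0.81. The test of the ratio between the groups, given below, passed for neither. Their input levels were at or under 18.9 CPM, with the stem and progenitor libraries at or under 5.51.

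Mmp2 and Mmp14 lay under the input in all 8 populations, and Timp3 in 7. The log2 ratio of Mmp2 ran from -1.92 in PCP to -1.39 in BCSP, and that of Mmp14 from -2.31 in 6C3 to -1.19 in BCSP. Timp3 ran from -2.01 in THY to -0.92 in BCSP, where it missed the threshold. The TIMP genes thus differed in sign, with Timp1 and Timp2 above and Timp3 below 0 in every WT population. Adamts10, chosen after its values were seen, was under the input in all 8 as well (-2.83 in BCSP to -1.19 in BLSP). Mmp13 had log2 ratios of -2.17 to -0.80.

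**Figure D4:**
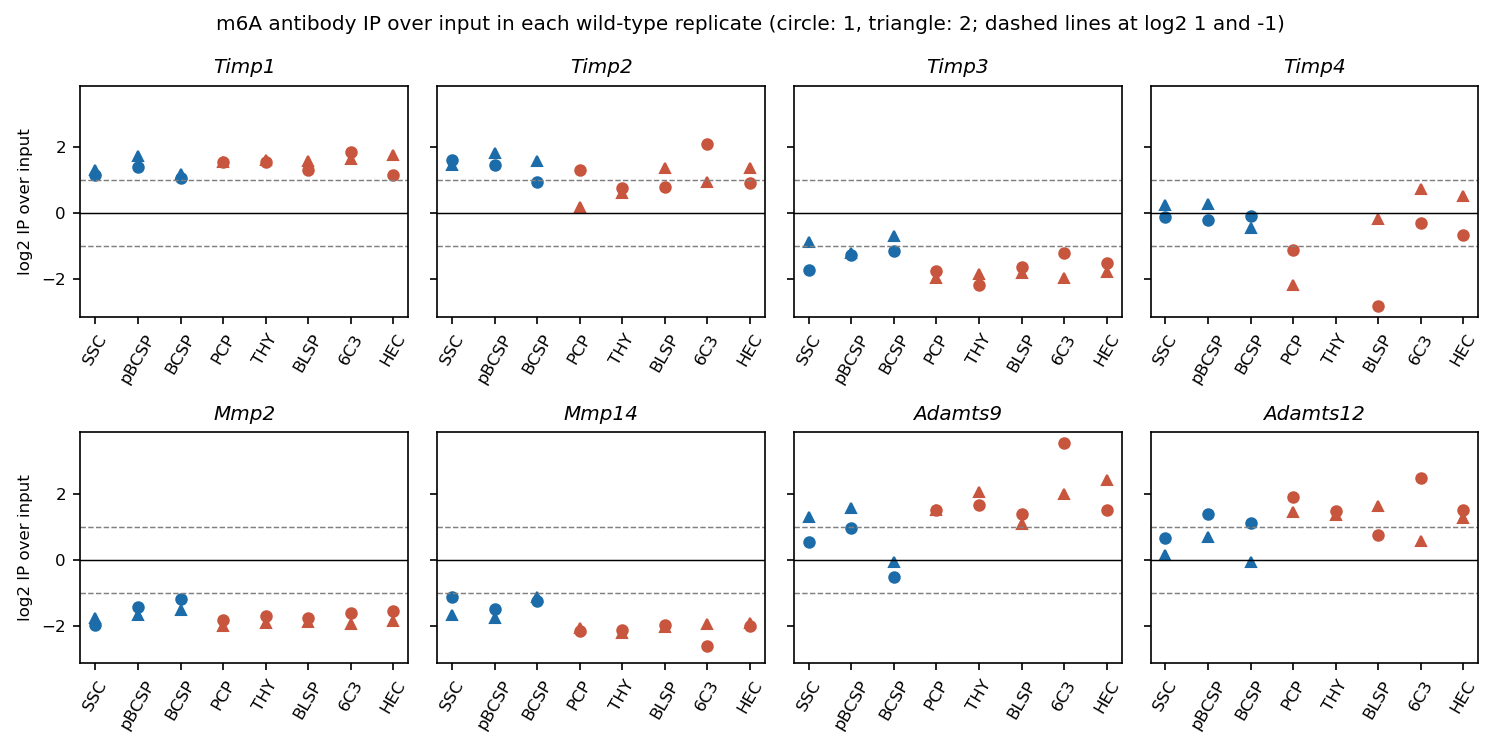
Log2 ratio of IP to input of Timp1 to Timp4, Mmp2, Mmp14, Adamts9 and Adamts12 by WT population, with a circle for replicate 1 and a triangle for replicate 2, dashed lines at 1 and -1, with blue for SSC, pBCSP and BCSP and red for the downstream populations. Timp1 lies above 1 in every replicate, and Mmp2 and Mmp14 lie below -1 in every replicate.

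The antibody's target is known to lie often in the sequence GGACT. The transcripts of Timp1, Timp2 and Timp3 are shown with theirs because these genes differ in the sign of the ratio. In the longest transcript of each gene in GENCODE on GRCm38, GGACT was found once in Timp1, 3 times in Timp2 and 4 times in Timp3, with 10 bases on either side and the motif in capitals:
Timp1, coding, exon 6 of 6, chrX:20874544-20874568, plus strand: tgggctctgaGGACTaccagagccg
Timp2, coding, exon 5 of 5, chr11:118303823-118303847, minus strand: gcctctggatGGACTgggtcacaga
Timp2, 3' UTR, chr11:118303158-118303182, minus strand: catctggtatGGACTttcaggaccc
Timp2, 3' UTR, chr11:118302157-118302181, minus strand: aaacggttaaGGACTccccctcaga
Timp3, 5' UTR, exon 1 of 5, chr10:86300533-86300557, plus strand: ctgcagccctGGACTctcgctcaca
Timp3, 5' UTR, exon 1 of 5, chr10:86300640-86300664, plus strand: ttggctccgcGGACTcgtgttccag
Timp3, 5' UTR, exon 1 of 5, chr10:86300765-86300789, plus strand: gagtgagctcGGACTgtagcatcag
Timp3, coding, exon 4 of 5, chr10:86344573-86344597, plus strand: gatgtacacaGGACTgtgcaacttt

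Per kilobase this was 1.13 in Timp1, 0.809 in Timp2 and 0.847 in Timp3, beside a median of 1.01 over 21877 protein-coding genes, of which 87.6% held the motif at least once. Timp4, tagged in no population, held the motif 5 times (0.91 per kilobase), and its windows are not shown. The letters mark no modified base, since the ratio is 1 value for a whole gene.

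The ratio was set between the stem and progenitor and the downstream populations in 1 model over the 32 WT libraries. Of 48 members 2 had a higher ratio in the stem and progenitor populations, beside 3.06% of all genes, and 2 a lower one, beside 1.77%. The ratio of Mmp14 was higher by 0.83 (SE 0.15, adjusted p 0.00133) and that of Timp3 by 0.72 (SE 0.17, adjusted p 0.0143). For Mmp14 the replicate ratios ran from -1.76 to -1.13 in the stem and progenitor and from -2.62 to -1.93 in the downstream populations, without overlap, and for Timp3 from -1.74 to -0.71 and from -2.17 to -1.20, with overlap. Both were thus less far under the input in the stem and progenitor populations. The call of Timp3 was lost with DESeq2's size factors (0.55, adjusted p 0.0636) and without SSC, 6C3 or HEC IP libraries (SSC replicate 2, 6C3 replicate 2, HEC replicate 1 or 2, 0.60 to 0.62). Adamts17 (-2.94, adjusted p 0.0206) and Adamts8 (-4.06, adjusted p 0.0374) had a lower ratio. In Adamts17 both BCSP IP libraries were at 0 counts, against 52 and 145 in the input, and the ratio missed the threshold without BCSP input replicate 2 (-2.63, adjusted p 0.0507). Adamts8 was at 0 counts in both IP libraries of SSC and of pBCSP. Against the level of 3 counts over the group its ratio was at least 32.1-fold lower in SSC and at least 37.4-fold lower in pBCSP than in the input. Its call was lost without any 1 of 10 libraries, with a log2 difference of -2.0 without BCSP input replicate 1.

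Mettl3 itself was measured first in the libraries labelled Mettl3cko. WT libraries held 15.1 and 15.6 CPM (SSC), 11.9 and 16.1 CPM (pBCSP) and 18.1 and 19.9 CPM (BCSP), and Mettl3cko libraries 16.6 and 18.8, 22.2 and 22.8, and 16.4 and 17.8 CPM in the same order. The log2 differences were 0.19, 0.69 and -0.15, with unadjusted p of 0.502, 0.0659 and 0.614, so that the gene's total level was not lower in these libraries. Counts over a whole gene do not separate the deleted exons from the rest. The paper reports the deletion of Mettl3 by qRT-PCR and, in SSC, by Western blot. It also reports less m6A in Mettl3cko, by dot blot and in the profiles of SSC, pBCSP and BCSP.

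At the study's thresholds for mRNA, an absolute log2 difference over 0.5 with an unadjusted p under 0.05, 1 of 39 tested members was higher in Mettl3cko SSC (6.96% of all genes) and 3 were lower (7.07%). In pBCSP 1 of 42 was higher (3.88%) and 0 were lower (4.48%), and in BCSP 7 of 43 were higher (7.21%) and 4 lower (5.72%). At an adjusted p under 0.05 edgeR called 0 members and 0 genes in each of the 3 populations. DESeq2's adjusted p called Mmp10 in SSC (4.11% of all genes), Timp3 in BCSP (3.26%) and no member in pBCSP (0.961%). At an unadjusted p under 0.05 alone 5 members passed in SSC (14.7% of all genes), 1 in pBCSP (8.37%) and 11 in BCSP (13.0%). The 5 red cell markers summed to 0.704 to 5.54 CPM in the WT and 9.72 to 50.2 CPM in the Mettl3cko libraries of these populations, without overlap, and their part in the differences was not tested.

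Mmp10 was higher in 2 of the 3 populations. It was at 8.6 and 3.2 CPM in WT SSC and 21.9 and 27.6 in Mettl3cko SSC, a log2 difference of 2.05 (SE 0.47, p 0.00311, adjusted p 0.176). In BCSP it was at 7.09 and 0.74 CPM in WT and 15.2 and 22.1 in Mettl3cko (2.25, SE 0.86, p 0.0319, adjusted p 0.338), and in pBCSP at 7.47 and 1.41 and at 7.02 and 10.9 CPM. The WT and Mettl3cko libraries did not overlap in SSC and BCSP and did in pBCSP. Timp3 was at 546 and 466 CPM in WT BCSP and at 1081 and 985 in Mettl3cko (1.03, SE 0.21, p 0.0013, adjusted p 0.206). In pBCSP it went the other way, at 582 and 479 CPM in WT and 321 and 488 in Mettl3cko, and in SSC it was at 965 and 522 and at 975 and 1070 CPM.

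Lower in Mettl3cko SSC were Mmp13 (202 and 90.5 against 63.6 and 25.4 CPM, -1.73, p 0.00978, adjusted p 0.209), Adamts5 (32.6 and 17.6 against 6.85 and 13.6 CPM, -1.31, p 0.0184, adjusted p 0.238) and Timp2 (99.2 and 130 against 79.9 and 58.6 CPM, -0.74, p 0.0161, adjusted p 0.231). Without SSC replicate 1 Mmp13 was at -1.02 (p 0.0898) and Adamts5 at -0.77 (p 0.181). Timp2 was at -0.54 (p 0.119) without SSC replicate 2 and at -0.53 (p 0.0745) without Mettl3cko SSC replicate 2. In pBCSP Mmp12 was higher, at 0.483 and 0.184 CPM in WT and 1.17 and 4.47 in Mettl3cko (3.07, p 0.0368, adjusted p 0.569), and it missed the threshold without pBCSP replicate 1 or 2 or Mettl3cko pBCSP replicate 2 (1.80 to 3.91). The summed macrophage markers, mostly Cd14 and Cd68, were at 34.3 to 66.1 CPM in the WT and 37.9 to 76.7 in the Mettl3cko libraries of the 3 populations.

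In Mettl3cko BCSP Mmp25, a membrane-type metalloprotease known from neutrophils, was at 4.64 and 4.32 CPM against 0.411 and 0.965 in WT (2.69, p 0.0106, adjusted p 0.273). Also higher were Adamtsl1 (1.83, p 0.0492), Adamts4 at 6.32 and 8.10 against 2.53 and 3.25 CPM (1.32, p 0.0343), Adamts1 (0.66, p 0.0481) and Mmp2 at 1570 and 1366 against 800 and 1159 CPM (0.58, p 0.0457). Mmp15 (-2.05, p 0.0426), Mmp17 (-4.98, p 0.0249) and Adamts13 (-4.30, p 0.0408) were lower. Mmp24 was at 12 and 10 counts in WT BCSP and at 0 in both Mettl3cko libraries, at least 7.22-fold lower against 3 counts over the group. The calls of Adamts1, Adamts4, Adamts13, Adamtsl1, Mmp2, Mmp15, Mmp17 and Mmp24 were each lost without at least 1 BCSP library of either genotype. Of all 16 calls over the 3 populations, the 4 kept with each library left out were Mmp10 in SSC and BCSP and Mmp25 and Timp3 in BCSP.

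**Figure D5:**
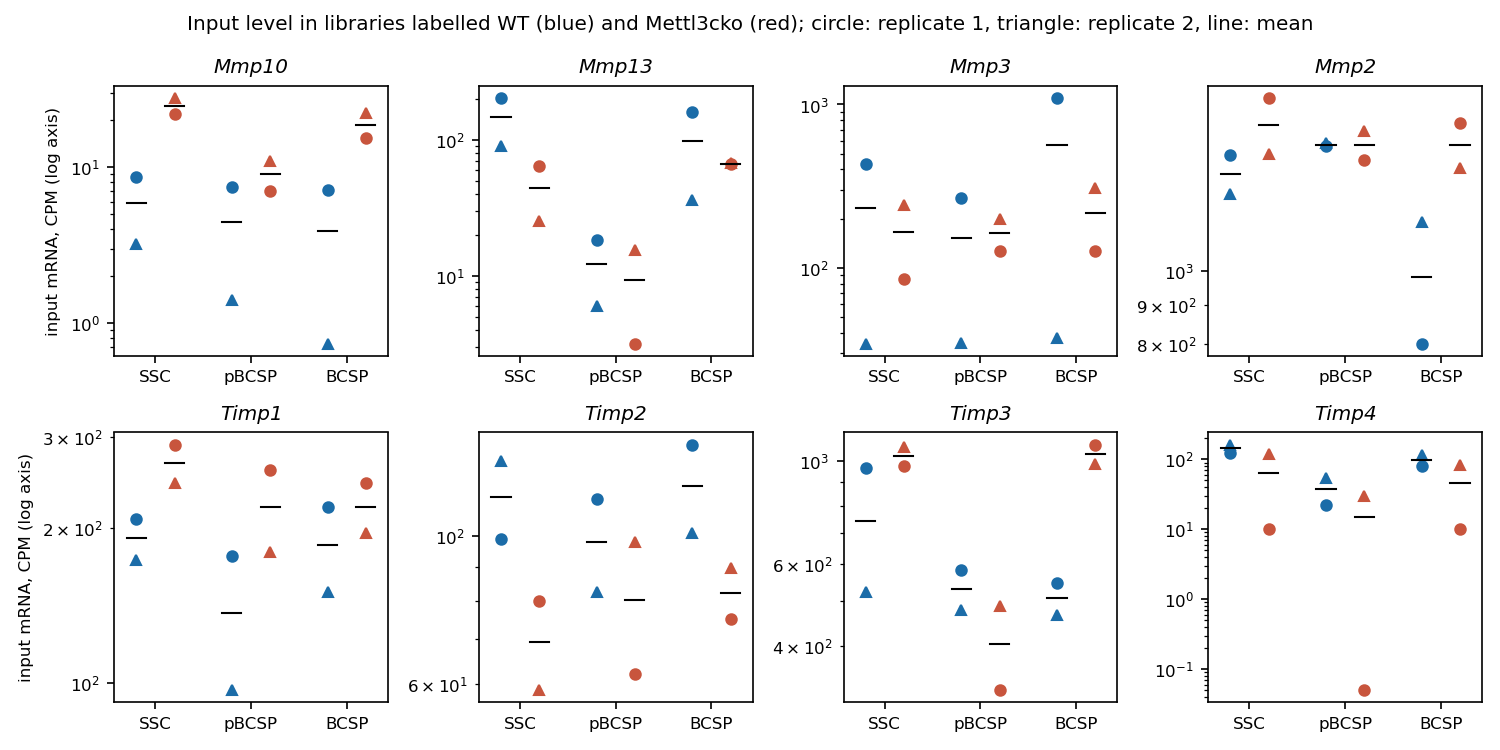
Input CPM on a log axis of Mmp10, Mmp13, Mmp3, Mmp2 and the 4 TIMP genes in the WT (blue) and Mettl3cko (red) libraries of SSC, pBCSP and BCSP, circles for replicate 1, triangles for replicate 2 and lines for the mean, with a listed 0 drawn at 0.05 CPM. Mmp10 is higher in all Mettl3cko libraries of SSC and BCSP, and Timp4 has the widest spread between the 2 Mettl3cko replicates.

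Over the 3 populations together, with population in the model, edgeR's adjusted p passed for no member in either direction, beside 3.75% of all genes higher and 2.72% lower. At an unadjusted p under 0.05, 10 of 46 were higher (10.7% of all genes) and 3 lower (11.7%). Mmp10 (log2 difference 1.78, adjusted p 0.0613), Adamts19 (1.90, adjusted p 0.0859) and Mmp25 (2.39, adjusted p 0.0942) were the higher members nearest the threshold, and Timp2 (-0.52, adjusted p 0.0874) the lower one. DESeq2's adjusted p called these 4 and Mmp12, beside 12.7% of all genes. Timp1 was higher by 0.47 (p 0.0188), Mmp14 by 0.42 (p 0.0198) and Timp3 by 0.37 (p 0.0418). Mmp9 was lower by 2.61 on the log2 scale (p 0.026). Its log2 difference was -0.32 in SSC alone (unadjusted p 0.716) and -0.77 in BCSP alone (unadjusted p 0.372). In pBCSP alone it had too few counts to be tested, at 27 and 0 in WT and 0 and 0 in Mettl3cko, so the pooled value leans on 1 WT library there. The difference between genotypes varied with population at an unadjusted p under 0.05 for 1 member, Timp3 (p 0.0129, adjusted p 0.941), beside 4.50% of all genes, and at an adjusted p under 0.05 for none with edgeR or DESeq2.

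The Mettl3cko replicates were split in 4 members, Adamtsl4, Mmp12, Mmp19 and Timp4, whose replicate 2 was over 2-fold above replicate 1 in all 3 populations, beside 0.714% of all genes. Mettl3cko SSC held 10.1 and 119 CPM of Timp4, BCSP 9.99 and 82.2, and pBCSP 0 and 30.3. Replicate 1 lay below both WT libraries of its population in all 3, whereas replicate 2 lay between them in pBCSP and BCSP and just below them in SSC. The log2 difference of Timp4 over the 3 populations was -1.19 (p 0.187). The summed neutrophil markers were at 2.01, 3.1 and 0.821 CPM in Mettl3cko replicate 1 and at 29.5, 15.1 and 9.9 in replicate 2, and their part in this split was not tested. Different markers made up these sums. In Mettl3cko SSC replicate 2 Mpo was at 22.4 CPM and Ngp at 0. In replicate 2 of Mettl3cko pBCSP and BCSP Mpo was at 0.801 and 0.0587 CPM and Ngp at 4.31 and 3.82.

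Among the partners, Reck was lower at the study's thresholds in each of the 3 Mettl3cko populations. Over the 3 together its log2 difference was -0.80 (SE 0.15, adjusted p 0.0117). Ctsk, a collagen-cutting cathepsin known from osteoclasts, was lower (-0.69, adjusted p 0.023). The 6 osteoclast markers, which do not include Ctsk, summed to 5.11 to 9.81 CPM in the WT libraries of these populations. They summed to 8.19 to 22.5 CPM in the Mettl3cko libraries, and their part in the differences was not tested. Plaur, the urokinase receptor, was higher (0.93, adjusted p 0.0135). So was Cd44, a hyaluronan receptor that can hold Mmp9 at the cell surface (0.45, adjusted p 0.0317).

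For the ratio of IP to input in Mettl3cko against WT over the 3 populations, 1 member passed the adjusted p with a lower ratio, beside 3.30% of all genes. At an unadjusted p under 0.05, 7 were lower (13.4% of all genes) and 1 was higher (3.58%). The single call was Adamtsl1 (adjusted p 0.0143). It was at 0 counts in all 6 Mettl3cko IP libraries, with inputs of 50, 0, 99, 165, 179 and 80 counts, and at 74, 0, 116, 163, 63 and 102 counts in the WT IP libraries. Its call was lost without any 1 of 8 libraries (adjusted p 0.0551 to 1). Members listed at 0 counts in the IP with at least 20 input counts numbered 8 to 14 per Mettl3cko IP library, 1 to 7 per WT stem and progenitor library and 0 to 3 per WT downstream library. Of all genes with that many input counts the share at 0 was 15.5% to 25.8%, 3.52% to 8.65% and 1.36% to 5.44%, so that the Mettl3cko IP libraries held more genes at 0 than any WT library, and the part of this in the ratios was not tested.

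The log2 ratio of Timp1 stayed above 1 in the Mettl3cko libraries, from 1.41 in BCSP replicate 2 to 2.08 in SSC replicate 2. The difference from WT over the 3 populations was 0.45 (SE 0.27, p 0.109). Timp3 went further under the input in Mettl3cko, with replicate ratios from -2.62 in SSC replicate 1 to -1.29 in pBCSP replicate 2. That difference was -0.78 (SE 0.26, p 0.0082) and missed the adjusted threshold (0.108). The median difference in the ratio was -0.489 over the members and -0.392 over all genes, so a change of this size lies against a shift of the whole table.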

How the data were processed

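Per the labels and the study's methods, m6A-modified RNA was enriched from total RNA with an antibody, libraries were made by SLIM-seq (Smart-seq2 chemistry with Tn5) beside their inputs and sequenced in pairs, and the authors processed the reads with fastp 0.20.1, HISAT2 2.2.1 on GRCm38 and featureCounts 2.0.1. The authors deposited raw counts per gene. Whether counting used strand is not given in the sources used here. The table held 46959 entries, of which 128 named dates and no gene (at most 0.39% of a library's counts) and were left out.

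Counts were tested with edgeR 4.0.16 (TMM, filterByExpr, quasi-likelihood) in R 4.3.3, with Benjamini-Hochberg adjustment over all genes tested. A prior count of 2 was used for the log2 ratios of single replicates and for the correlations given below, not in the tests. WT inputs were fitted together by population. IP was set against input within each population, the ratio between groups was an interaction term, and Mettl3cko against WT was fitted per population and over all 3 with population as a term. Scripts were tested on simulated data. Alternatives were DESeq2 1.42.0, its size factors, library size alone, no filter, a replicate block, and each library left out. PCP left out and replicate 1 of SSC, pBCSP and BCSP left out were chosen after seeing the data. Same-numbered IP and input libraries correlated at 0.0178 to 0.237 and same-numbered WT inputs of different populations at -0.184 to 0.117 in their deviations, and the fits had no block. Cells of a sort were divided between IP and input, which ties them, but no source says that a shared number marks a sort, so a fit with the number as a block was run beside each.

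The members and lists were chosen with earlier results of these data known. Named members were the markers Mmp13 and Mmp9, the TIMPs, the 10 highest by length-scaled level, the 6 largest differences in each direction between stem and downstream populations, the 3 most raised per population, those tagged in at least 4 populations, those past the study's thresholds in Mettl3cko, and those past the adjusted p in a ratio contrast. Others stand with counts of their family. A result for 1 partner gene is not reported here.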

Additional observations from a re-analysis of the deposited data

How the results depend on the processing

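Across the alternatives the number of members that differed among the 8 WT populations was 33 to 36 with 1 library left out, 35 with the replicate block and 34 as reported. Members lower in the stem and progenitor populations numbered 27 to 30 with 1 library left out and 29 with the block, and those higher 4 to 7 and 7. The replicate block gave 87 higher and 64 lower calls over the populations, 25 tagged calls, 4 ratio calls between the groups, 8 calls in Mettl3cko SSC, 1 in pBCSP, 12 in BCSP and 2 over the 3 together (0 as reported), and 1 for their ratio. Of the tagged calls and the calls on the ratio, the block changed that of Mmp8 in HEC alone.

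Counts that moved by over 1.5 times were as follows. Without a filter on low counts the ratio contrast called 9 members (4 as reported), Mettl3cko SSC 10 (4), pBCSP 5 (1), BCSP 18 (11), the 3 together 12 (0), the genotype by population term 3 (0) and the Mettl3cko ratio 5 (1). DESeq2 called 3 in pBCSP, 5 over the 3 populations and 4 for the ratio. An adjusted p in place of the study's thresholds called 0 in each Mettl3cko population. With 1 library left out the calls ran from 74 to 94 (higher) and 53 to 70 (lower) over the populations, 24 to 29 for tagged members, 3 to 5 for the ratio, 4 to 10 in Mettl3cko SSC, 0 to 12 in pBCSP, 8 to 12 in BCSP, 0 to 4 over the 3, 0 to 0 for the genotype by population term and 0 to 6 for the Mettl3cko ratio. Mmp3 ran from -0.497 (without SSC replicate 1) to 3.149 in SSC, and from -0.2068 (without BCSP replicate 1) to 4.672 in BCSP. The cause was not tested beyond the construction of each alternative. DESeq2's size factors moved the median ratio difference of all genes to -0.241 (-0.0794 as reported). With 2 libraries a group, a lone library is assumed to vary like the other groups when its partner is left out.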
